A study of Saccharomyces cerevisiae with 4 samples.

Results

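The outer parts of 3 chromosome arms of budding yeast are described here: the right arm of chromosome V, the right arm of chromosome VIII and the left arm of chromosome IX. They are runs of neighbouring HindIII restriction fragments in a Hi-C map, chosen by their row numbers in the 25 °C map and carried over to the 37 °C map, not by the contact ratios described below. They comprise 205 of the 4382 fragments matched between the maps, with 62 on V, 86 on VIII and 57 on IX, and 202 of them passed the filter on fragments with few contacts. The arms themselves measured 137, 167 and 134 fragments here, which is a medium length among the 32 arms, the shortest having 20 fragments and the longest 387. A fragment spans 2.75 kb on average, so the members cover about 170.5, 236.6 and 156.8 kb.

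In Hi-C, chromatin is fixed and cut, nearby DNA ends are ligated, and sequencing of the ligated pairs counts how often fragments were in contact. Strain BY4742 was grown in rich medium (YPD), and each culture was divided into aliquots. In the 37 °C group, 1 volume of fresh prewarmed medium was added, the cells were shaken at 37 °C for 15 minutes, and they were fixed in 3% formaldehyde at 37 °C. In the 25 °C group, cells stayed at 25 °C and were fixed in 3% formaldehyde at 25 °C; each group had 2 biological replicates. The replicates of a group are combined in 1 deposited map, so no difference between temperatures has a replicate error and none was tested. Temperature, the temperature of fixation and the fresh medium cannot be told apart.

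In yeast nuclei the centromeres are gathered at the spindle pole body and the chromosome ends lie at the nuclear envelope, so that each arm runs outward from a common point. How far along an arm a locus lies, and how long the arm is, are the main known determinants of which loci on other chromosomes it meets. Arms of like length can bring their ends to like places, and a medium arm lies between the short arms, whose ends stay near the centromeres, and the long arms, whose ends reach the far side of the nucleus.

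The 37 °C map held 1937970 contacts over 4383 fragments and the 25 °C map 5920062 over 4388, with medians of 718 and 2729 contacts per fragment. Fragments carry no names, so chromosomes and centromeres were placed from the contacts; the placed centromeres of V, VIII and IX lay 7.7, 6.4 and 11.2 kb from their annotated positions. Ratios below are observed over expected contacts between chromosomes, where the expectation is the product of 2 fragment factors fitted so that each fragment's total is met. A ratio of 1 is therefore the average for fragments of that coverage, and a rise with some partners must be balanced by a fall with others. Intervals in brackets are exact 95% intervals that cover counting error only. A log2 value is that of the 37 °C ratio divided by the 25 °C ratio, so a negative one means a lower ratio at 37 °C.

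The members were covered like the rest of the genome, and more of their contacts were with other chromosomes. Total contacts per fragment on V right ran from 291 over a median of 731 to 2555 in the 37 °C map, and from 520 over 2664 to 3906 in the 25 °C map. On VIII right the lowest, median and highest totals were 275, 639 and 2626 at 37 °C and 1240, 2768 and 4811 at 25 °C. On IX left they were 333, 694.5 and 2444 at 37 °C and 742, 2760.5 and 4670 at 25 °C. Of the members' contacts, 88.5% at 37 °C and 94.5% at 25 °C were between chromosomes, against 81.3% and 88.3% over all matched fragments. A set of 579 fragments (13.5%) had a factor ratio of 37 °C over 25 °C above 2 times the median and are called raised fragments; 22 of the members (10.9%) were among them. Their part in the results was not tested beyond the values without them.

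The 3 arms met each other more often than expected in both maps, and the summed ratio was lower at 37 °C. V right and VIII right shared 1237 contacts at 37 °C and 4292 at 25 °C. Their ratio was 1.21 (1.15 to 1.28) at 37 °C and 1.31 (1.27 to 1.35) at 25 °C, with a log2 of -0.11 (-0.20 to -0.02). V right and IX left shared 770 and 2626 contacts, a ratio of 1.13 (1.05 to 1.21) at 37 °C and 1.19 (1.15 to 1.24) at 25 °C. VIII right and IX left shared 930 and 3667 contacts, a ratio of 1.13 (1.06 to 1.21) at 37 °C and 1.19 (1.15 to 1.23) at 25 °C. V with VIII was therefore the highest of the 3 pairs in both maps, and at 25 °C its interval did not overlap those of the pairs with IX. With the expectation taken from fragment totals alone, V with IX at 1.05 (0.98 to 1.13) and VIII with IX at 1.05 (0.99 to 1.12) were no longer above 1 beyond counting error at 37 °C.

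Over the 3 pairs together the ratio was 1.16 (1.12 to 1.21) at 37 °C and 1.24 (1.21 to 1.26) at 25 °C, a log2 of -0.09 (-0.15 to -0.03). The log2 of V with IX was -0.08 (-0.20 to 0.03) and that of VIII with IX -0.07 (-0.18 to 0.03), so neither pair alone differed between the maps beyond counting error. Without raised fragments the interval of V with VIII also reached 0, at -0.11 (-0.22 to 0.01). The median over all 480 pairs of outer arm parts on different chromosomes was 1.07 at 37 °C and 1.09 at 25 °C, with a median log2 of -0.01. Of those 480 pairs, 12.3% at 37 °C and 16.2% at 25 °C had a ratio of at least 1.5, and none of the 3 pairs among the members, nor of the 84 pairs of a member with another arm, did in either map. The outer parts of the other arms include the chromosome ends, and those of the members stop 8 to 18 fragments before them.

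At 25 °C the contacts of each pair were most enriched between the outer sides of the arms. Each member run was split into 3 portions by distance from its centromere. The outer portions of V and VIII had a ratio of 1.51 (1.31 to 1.73, 208 contacts) at 37 °C and 1.56 (1.43 to 1.70, 524 contacts) at 25 °C. The inner portions of the same arms had 1.19 (1.00 to 1.40) at 37 °C and 1.15 (1.05 to 1.27) at 25 °C. For V and IX the outer portions had 1.36 (1.10 to 1.65) at 37 °C and 1.58 (1.42 to 1.76) at 25 °C, and the inner portions 0.92 (0.74 to 1.13) and 1.09 (0.97 to 1.23). In both of these pairs the outer portions stood above the inner ones in each map, and at 25 °C the intervals did not overlap.

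VIII and IX showed the same order at 25 °C but not at 37 °C. Their outer portions had 1.11 (0.89 to 1.37) at 37 °C and 1.37 (1.24 to 1.52) at 25 °C, and their inner portions 1.15 (0.95 to 1.37) and 1.15 (1.05 to 1.27). The middle portion of VIII with the outer portion of IX had the lowest value of any combination at 37 °C, 0.79 (0.60 to 1.01, 58 contacts), against 1.17 (1.06 to 1.30, 388 contacts) at 25 °C. At 37 °C the interval of each combination of an inner with an outer portion included 1. At 25 °C it lay above 1 for 2 of them. V inner with VIII outer had 1.02 (0.85 to 1.22) at 37 °C and 1.34 (1.22 to 1.47) at 25 °C, a log2 of -0.39 (-0.69 to -0.10). VIII inner with IX outer had 1.19 (0.96 to 1.47) at 37 °C and 1.17 (1.06 to 1.30) at 25 °C.

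**Figure D1:**
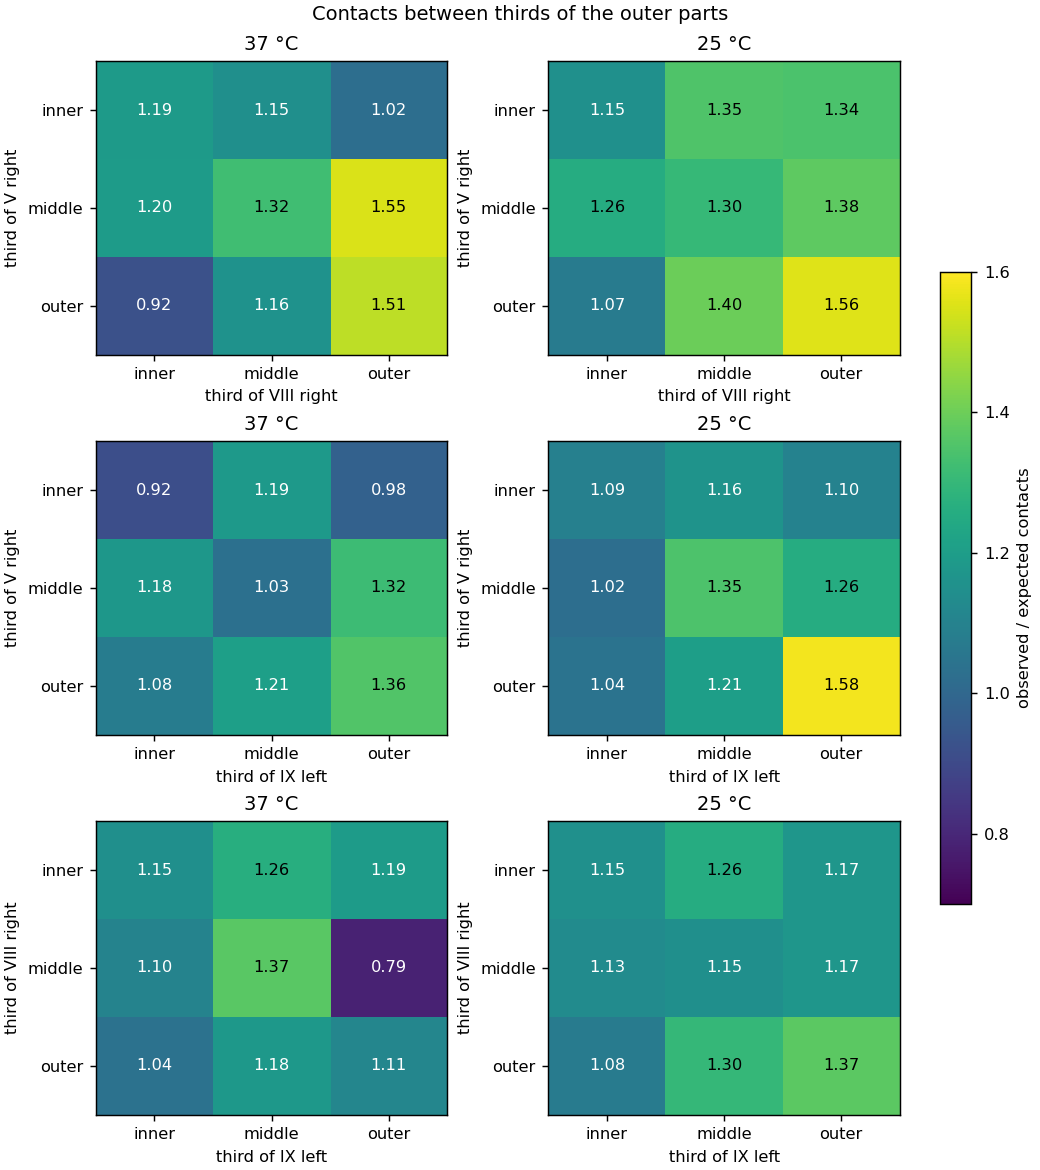
Observed over expected contacts between the inner, middle and outer portions (by distance from the centromere) of the 3 arms, for V with VIII (top), V with IX (middle) and VIII with IX (bottom), at 37 °C (left) and 25 °C (right); colour and printed number give the same ratio. At 25 °C the outer-with-outer square is the highest of its panel in each pair, at 1.56, 1.58 and 1.37; at 37 °C the same squares hold 1.51, 1.36 and 1.11.

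The partners of each arm were then sorted by arm length, which asks whether arms of like length met most. Short arms are those under 80 fragments, long arms those of 200 or more and medium arms those between; each partner enters with its outermost 60 fragments, less any within 8 of its centromere. The 3 member arms are left out of the medium class, which leaves 10 short, 9 medium and 9 long partner arms for each.

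The right arm of V met long arms more often and short arms less often than expected. With long arms it had 8876 contacts at 37 °C and 26069 at 25 °C, a ratio of 1.27 (1.24 to 1.30) and 1.37 (1.36 to 1.39). With medium arms the ratio was 1.12 (1.10 to 1.15) at 37 °C and 1.16 (1.14 to 1.17) at 25 °C. With short arms it was 0.79 (0.76 to 0.82) at 37 °C and 0.70 (0.68 to 0.71) at 25 °C. The order long, medium, short held in both maps with intervals that do not overlap, and the spread between the classes was narrower at 37 °C. The log2 was -0.11 (-0.15 to -0.08) with long arms and 0.18 (0.12 to 0.23) with short arms. Leaving out each partner chromosome in turn kept it between -0.13 and -0.10 with long arms and between 0.12 and 0.28 with short arms. Without raised fragments the log2 with long arms was -0.05 (-0.10 to -0.00), the upper bound lying just below 0. Counted over whole partner arms in place of their outer parts, medium arms fell below expectation, at 0.96 in each map.

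The right arm of VIII showed the same order at 25 °C with a smaller spread. With long arms its ratio was 1.12 (1.10 to 1.15) at 37 °C and 1.22 (1.21 to 1.23) at 25 °C. With medium arms it was 1.11 (1.08 to 1.13) at 37 °C and 1.15 (1.14 to 1.16) at 25 °C, so that long and medium partners could not be told apart at 37 °C. With short arms it was 0.83 (0.80 to 0.85) at 37 °C and 0.79 (0.78 to 0.80) at 25 °C. The log2 was -0.12 (-0.15 to -0.09) with long, -0.06 (-0.09 to -0.02) with medium and 0.07 (0.02 to 0.12) with short arms. Leaving out 1 partner chromosome moved these to between -0.13 and -0.10, -0.07 and -0.05, and 0.05 and 0.09. Without raised fragments they came to -0.07 (-0.12 to -0.03) with long arms and 0.06 (-0.00 to 0.12) with short arms, the last interval just reaching 0. Over whole partner arms the ratio with medium arms was no longer above 1 beyond counting error, at 1.00 (0.99 to 1.02) at 37 °C and 1.01 (0.999 to 1.01) at 25 °C.

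The left arm of IX differed from both: its ratio was highest with medium arms and close to 1 with short ones. With medium arms the ratio was 1.18 (1.15 to 1.21) at 37 °C and 1.22 (1.20 to 1.23) at 25 °C. With long arms it was 1.10 (1.07 to 1.12) at 37 °C and 1.13 (1.12 to 1.15) at 25 °C. With short arms it was 1.00 (0.97 to 1.03) at 37 °C and 0.97 (0.95 to 0.98) at 25 °C. With the expectation taken from fragment totals alone, short arms had 0.92 (0.89 to 0.95) at 37 °C and 0.90 (0.88 to 0.91) at 25 °C, below 1 in both maps. Without raised fragments the intervals of medium arms, at 1.20 (1.16 to 1.24), and long arms, at 1.16 (1.13 to 1.20), overlapped at 37 °C. Differences between the maps were small, with a log2 of -0.05 (-0.09 to -0.01) for medium, -0.05 (-0.09 to -0.00) for long and 0.05 (-0.01 to 0.10) for short arms. Without raised fragments the sign with long arms turned, to 0.01 (-0.04 to 0.06), and the value with short arms came to 0.09 (0.03 to 0.16). The interval with medium arms then reached 0, at -0.05 (-0.10 to 0.00), as it did with a cap of 5 contacts per fragment pair, at -0.04 (-0.08 to 0.00).

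Over the 3 arms together the log2 was -0.09 (-0.11 to -0.07) with long, -0.05 (-0.07 to -0.03) with medium and 0.08 (0.05 to 0.11) with short arms. Without raised fragments the value with long arms was -0.04 (-0.07 to -0.01), and over whole partner arms it was -0.03. With medium arms it was -0.01 over whole partner arms. The ratio over the 3 arms was 1.16 at 37 °C and 1.24 at 25 °C with long arms, and 1.13 and 1.17 with medium arms. Those with long arms were about the ratios of the 3 arms with each other, 1.16 and 1.24.

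**Figure D2:**
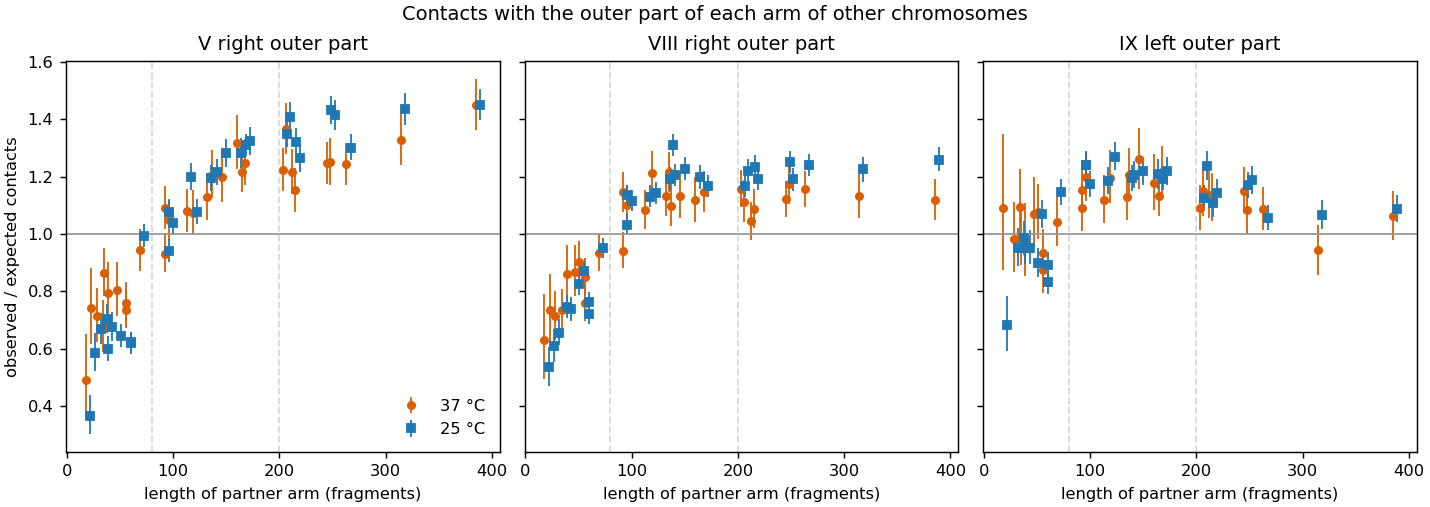
Observed over expected contacts (vertical axis) of the outer part of V right, VIII right and IX left with the outer part of each of 30 arms on other chromosomes, by the length of the partner arm in fragments (horizontal axis), at 37 °C (orange circles) and 25 °C (blue squares); bars are 95% Poisson intervals and dashed lines mark 80 and 200 fragments. For V right the ratio climbs with length, up to 1.45 at 37 °C and 1.45 at 25 °C with the right arm of IV, and for IX left it is highest among medium lengths.

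Single partner arms gave the same picture. For V right the ratio and the partner's length had a Spearman correlation of 0.93 at 37 °C and 0.95 at 25 °C over 30 partner arms. For VIII right it was 0.73 at 37 °C and 0.89 at 25 °C, and for IX left 0.30 at 37 °C and 0.40 at 25 °C. The partner arms of a map share its coverage, and 2 arms of 1 chromosome share a centromere, so these values are descriptions only.

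The highest partners of V right at 37 °C were IV right at 1.45 (1.36 to 1.54), VII left at 1.36 (1.28 to 1.46) and XII right at 1.33 (1.24 to 1.42). At 25 °C they were IV right at 1.45 (1.40 to 1.51), XII right at 1.43 (1.38 to 1.49) and XIII right at 1.43 (1.38 to 1.48). The intervals of these neighbours in the order overlapped in each map. XIII right stood at 1.25 (1.17 to 1.32) at 37 °C, a log2 of -0.20 (-0.30 to -0.10), while IV right had the same ratio in both maps. The right arm of XII carries the ribosomal DNA, and its outer part used here lies toward the chromosome end.

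The lowest partners of V right at 37 °C were I right at 0.49 (0.36 to 0.65, 48 contacts), VIII left at 0.67 (0.59 to 0.77) and III left at 0.71 (0.62 to 0.81). At 25 °C they were I right at 0.36 (0.30 to 0.44, 118 contacts), IX right at 0.58 (0.52 to 0.65) and VI right at 0.60 (0.56 to 0.64). VI right stood at 0.86 (0.78 to 0.95) at 37 °C, which gave a log2 of 0.53 (0.35 to 0.71). Of the 10 short partners, 8 had a higher ratio at 37 °C, 6 of them with an interval above 0. All 9 long partners had a lower ratio at 37 °C, 5 of them with an interval below 0, though the log2 of IV right was only -0.001. The share of such intervals over all outer arm pairs was not computed, so these counts have no background beside them. The ratio with long arms was also lower at 37 °C on each of the 17 arms compared below.

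VIII right had V right as its first partner in both maps, though its interval with V right overlapped those with the next arms named here. At 37 °C the next were X right at 1.21 (1.14 to 1.29) and XIV left at 1.17 (1.10 to 1.25). At 25 °C they were IV right at 1.26 (1.22 to 1.30) and XIII right at 1.25 (1.21 to 1.29). Its lowest partners at 37 °C were I right at 0.63 (0.49 to 0.79), III left at 0.71 (0.63 to 0.80) and IX right at 0.73 (0.62 to 0.86), and the same 3 arms were lowest at 25 °C, at 0.54, 0.66 and 0.61. All 9 long partners were lower at 37 °C, 7 with an interval below 0, and VII right had the lowest log2, at -0.24 (-0.34 to -0.14), with ratios of 1.04 at 37 °C and 1.23 at 25 °C. Of the 10 short partners, 7 were higher at 37 °C, 2 with an interval above 0. As for V right, these counts have no share over all outer arm pairs beside them. The other members did not lead elsewhere. Among the 30 partners of V right, VIII right had rank 11 at 37 °C and 9 at 25 °C, and IX left 15 and 16. Among those of IX left, V right had rank 12 and 9, and VIII right 11 and 10.

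IX left had a flat order with different leaders. At 37 °C they were X left at 1.26 (1.16 to 1.37), XI left at 1.22 (1.13 to 1.31) and XVI right at 1.21 (1.12 to 1.30). At 25 °C they were X right at 1.27 (1.22 to 1.32), XI right at 1.24 (1.19 to 1.29) and XIII left at 1.24 (1.19 to 1.29). Each of these 6 arms is of medium length, and their intervals overlapped in each map. XI right stood at 1.09 (1.01 to 1.17) at 37 °C, a log2 of -0.19 (-0.31 to -0.07). Its lowest partners at 37 °C were XII left at 0.87 (0.79 to 0.96), VI left at 0.93 (0.85 to 1.02) and XII right at 0.94 (0.86 to 1.03). At 25 °C they were I right at 0.68 (0.59 to 0.78), XII left at 0.83 (0.79 to 0.87) and VI left at 0.89 (0.85 to 0.94). I right stood at 1.09 (0.87 to 1.35) at 37 °C on 86 contacts, a log2 of 0.68 (0.30 to 1.05).

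Pairs past a log2 of 0.2 either way were set against all 480 outer arm pairs, of which 16.2% were at or above 0.2 and 8.12% at or below -0.2. Of the 84 pairs of a member with a non-member arm, 13 were at or above 0.2, a share near that background, and 2 were at or below -0.2, a smaller share than the background; none of the 3 pairs among the members was past either value. By arm, V right had 7 of 30 pairs at or above 0.2, VIII right 4 and IX left 2.

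Partner fragments were also sorted by their distance from their own centromere, and the ordering was similar. By definition the farthest class of partners lies on long arms only, and short arms enter only the nearer classes. Sorting by distance therefore largely regroups the contacts already sorted by arm length and is not a separate test of that ordering. With centromere regions, which reach 7 fragments to each side, V right had a ratio of 0.42 (0.40 to 0.45) at 37 °C and 0.29 (0.28 to 0.30) at 25 °C. VIII right had 0.46 (0.44 to 0.48) at 37 °C and 0.35 (0.34 to 0.36) at 25 °C, and IX left 0.50 (0.47 to 0.53) and 0.40 (0.39 to 0.42). All 3 arms were thus depleted of contacts with centromeres at both temperatures, with a higher ratio at 37 °C. V had the lowest ratio and IX the highest in each map, though the intervals of V and VIII, and of VIII and IX, overlapped at 37 °C. The log2 was 0.56 (0.47 to 0.66) for V, 0.38 (0.30 to 0.46) for VIII and 0.31 (0.21 to 0.40) for IX. Over the 3 arms it was 0.40 (0.35 to 0.45), against 0.27 (0.21 to 0.34) without raised fragments and 0.26 (0.21 to 0.31) with each fragment pair capped at 5 contacts. Among the 17 arms compared at the same distances below, members included, it ran from 0.27 on XII right to 0.69 on IV right. The higher ratio at 37 °C was therefore not particular to the members.

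Beyond the centromere V right had its highest ratio with the farthest partners. It passed 1 at partners 50 to 99 fragments out, with 1.05 at 37 °C and 1.09 at 25 °C, and reached 1.28 (1.26 to 1.31) at 37 °C and 1.38 (1.36 to 1.39) at 25 °C with partners 200 or more out. VIII right levelled off: partners 50 to 99 out had 1.12 at 37 °C and 1.12 at 25 °C, and those 200 or more out 1.12 (1.10 to 1.15) and 1.21 (1.20 to 1.23). IX left was highest in the middle of the range, with 1.10 at 37 °C and 1.14 at 25 °C at 50 to 99 fragments, and 1.05 (1.02 to 1.08) and 1.08 (1.07 to 1.10) at 200 or more. The log2 with partners 200 or more out was -0.10 (-0.14 to -0.06) for V, -0.11 (-0.15 to -0.08) for VIII and -0.05 (-0.09 to -0.00) for IX.

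**Figure D3:**
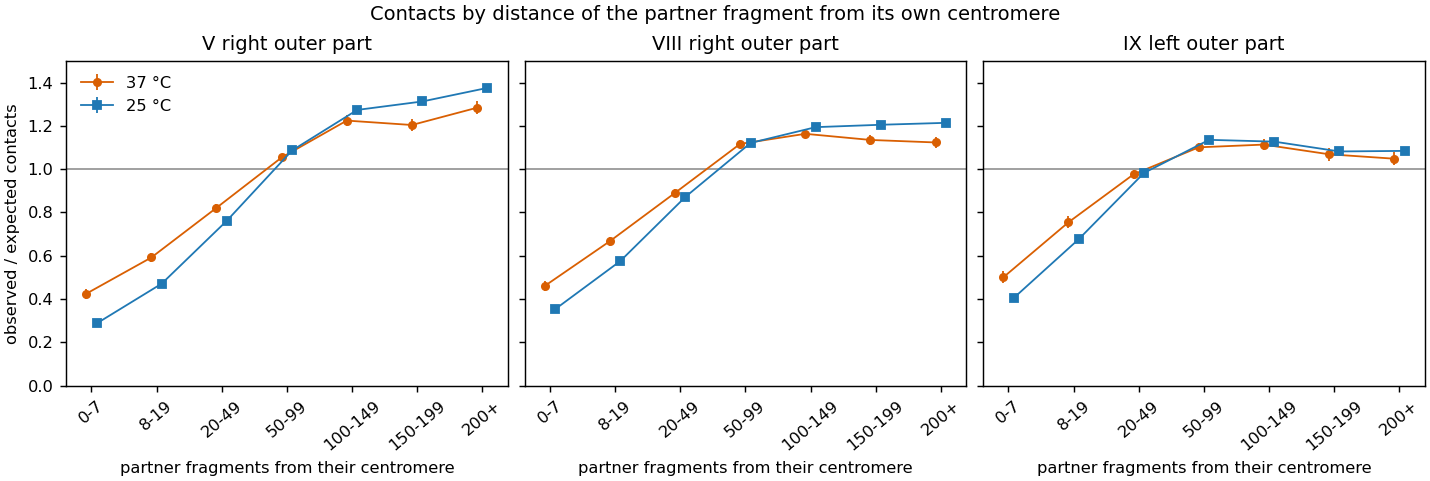
Observed over expected contacts (vertical axis) of each arm's outer part by the distance of the partner fragment from its own centromere, in 7 classes of fragments (horizontal axis), at 37 °C (orange circles) and 25 °C (blue squares), with 95% Poisson intervals. Every curve starts between 0.29 and 0.50 at the centromere regions, with 37 °C above 25 °C, and V right ends at 1.28 and 1.38, where 37 °C lies below 25 °C.

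With the farthest partners the outer portion of each arm had a higher ratio than the inner one. The outer portion of V right had 1.35 (1.31 to 1.40) at 37 °C and 1.47 at 25 °C with partners 200 or more out, against 1.19 (1.15 to 1.24) and 1.26 (1.23 to 1.29) for its inner portion. For VIII right the outer portion had 1.24 (1.20 to 1.28) at 37 °C and 1.34 (1.32 to 1.37) at 25 °C, and the inner portion 1.01 (0.97 to 1.05) and 1.07 (1.05 to 1.10). For IX left the outer portion had 1.17 (1.11 to 1.23) at 37 °C and 1.20 (1.16 to 1.23) at 25 °C, and the inner portion 0.98 (0.94 to 1.03) and 0.97 (0.94 to 0.99). With centromere regions the portions were not in the same order: on V right the middle portion was lowest, at 0.32 (0.28 to 0.36) at 37 °C and 0.26 (0.24 to 0.28) at 25 °C, against 0.44 (0.40 to 0.47) and 0.29 (0.27 to 0.31) for the outer one. The intervals overlapped at 25 °C. All 9 raised fragments of V right lay in its inner and outer portions. Without raised fragments the whole run of V right had 0.34 at 37 °C and 0.25 at 25 °C. The portions were not recomputed without them, so their part in this order was not tested. With the farthest partners the inner portion of V lay near the outer portion of IX at 37 °C, at 1.19 and 1.17. At 25 °C it lay above it, at 1.26 against 1.20, with intervals that did not overlap.

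Single fragments showed how even this was. With partners 200 or more out, the fragments of V right had a median ratio of 1.25 at 37 °C (0.84 to 1.61) and 1.36 at 25 °C (1.13 to 1.63), and 4 of 61 lay below 1 at 37 °C and 0 at 25 °C. VIII right had medians of 1.12 and 1.23, with 20 and 3 of 85 fragments below 1. IX left had medians of 1.03 and 1.11, with 22 and 14 of 56 below 1. The ratio went with the fragment's own distance from its centromere, with a Spearman correlation at 37 °C and 25 °C of 0.66 and 0.76 on V, 0.65 and 0.88 on VIII, and 0.60 and 0.85 on IX.

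With centromere regions all 202 fragments lay below 1 in both maps. The median was 0.39 at 37 °C and 0.26 at 25 °C on V, 0.42 and 0.33 on VIII, and 0.49 and 0.39 on IX. The ratio was higher at 37 °C for 45 of 61 fragments on V, 61 of 85 on VIII and 41 of 56 on IX. Taken by partner, the value at 37 °C was the higher one with 15 of 15 centromeres for V, 15 of 15 for VIII and 14 of 15 for IX, with an interval above 0 for 11, 7 and 3 of them. The same counts were not computed for other arms. A higher ratio with centromere regions at 37 °C was found on each of the 17 arms compared at the same distances, so these counts do not set the members apart. Fragments of 1 arm are neighbours and share their chromosome's place, so they are not replicates.

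**Figure D4:**
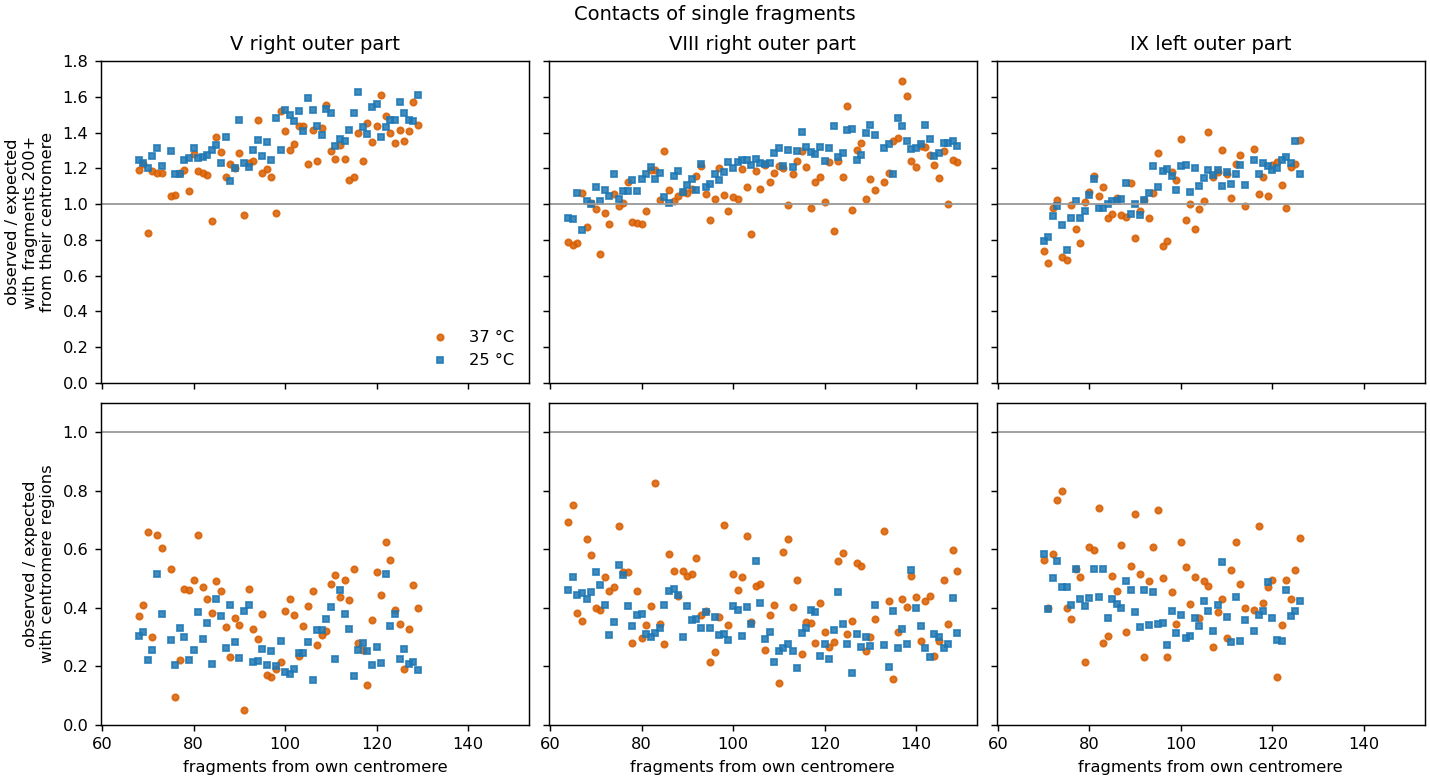
Observed over expected contacts of each member fragment with partners 200 or more fragments from their centromere (top) and with centromere regions (bottom), by the fragment's distance from its own centromere in fragments, at 37 °C (orange circles) and 25 °C (blue squares). In the top panels the points climb along each arm; in the bottom panels all lie below 1, and medians at 37 °C (0.39, 0.42 and 0.49) exceed those at 25 °C (0.26, 0.33 and 0.39).

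To compare the arms at the same distances from the centromere, the span covered by IX left was taken in the 17 arms with at least 40 kept fragments in it, with classes of partners as before but none on V, VIII or IX. An arm has no partner on its own chromosome, so the partner sets of the other arms differ slightly from those of the members. V right had the highest ratio with long arms of the 17 in both maps, 1.27 at 37 °C and 1.37 at 25 °C; IV right came next, at 1.21 and 1.28. IX left had the second highest ratio with short arms in both maps, 0.98 at 37 °C and 0.95 at 25 °C, after X right at 1.08 and 1.09. X right, with 121 fragments, ends before the span does and enters with 43 kept fragments, against 56 of IX left. VIII right lay inside the field, at rank 5 with short arms in both maps, with 0.82 and 0.78. Medium arms met IX left at 1.18 (rank 1) at 37 °C and 1.22 (rank 2) at 25 °C. The differences between the maps with long and short arms were not particular to the members. Over the 17 arms the log2 with long arms ran from -0.14 on VII left to -0.02 on X right. With short arms it ran from -0.01 on X right to 0.23 on VII right.

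The differences between the members at these distances use the same partners for each. V right over IX left had a log2 difference of -0.31 (-0.38 to -0.23) with short arms at 37 °C and -0.45 (-0.50 to -0.41) at 25 °C. With long arms it was 0.21 (0.17 to 0.26) at 37 °C and 0.27 (0.25 to 0.30) at 25 °C. Leaving out each partner chromosome kept the difference with short arms between -0.33 and -0.28 at 37 °C and between -0.54 and -0.40 at 25 °C. Without raised fragments that difference was -0.42 (-0.52 to -0.31) at 37 °C and -0.48 (-0.53 to -0.43) at 25 °C, with overlapping intervals. With long arms it was then 0.23 (0.16 to 0.30) and 0.28 (0.25 to 0.31). V right over VIII right had 0.21 (0.16 to 0.26) with long arms at 37 °C and 0.21 (0.18 to 0.24) at 25 °C. With short arms V and VIII did not differ beyond counting error at 37 °C, at -0.06 (-0.14 to 0.03), and did at 25 °C, at -0.17 (-0.21 to -0.12). VIII right over IX left had -0.25 (-0.33 to -0.17) with short arms at 37 °C and -0.29 (-0.33 to -0.24) at 25 °C. With long arms VIII and IX did not differ beyond counting error at 37 °C, at 0.00 (-0.05 to 0.05), and had 0.06 (0.03 to 0.09) at 25 °C. With medium arms V over VIII had 0.03 (-0.02 to 0.08) at 37 °C and 0.01 (-0.01 to 0.04) at 25 °C, also within counting error.

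**Figure D5:**
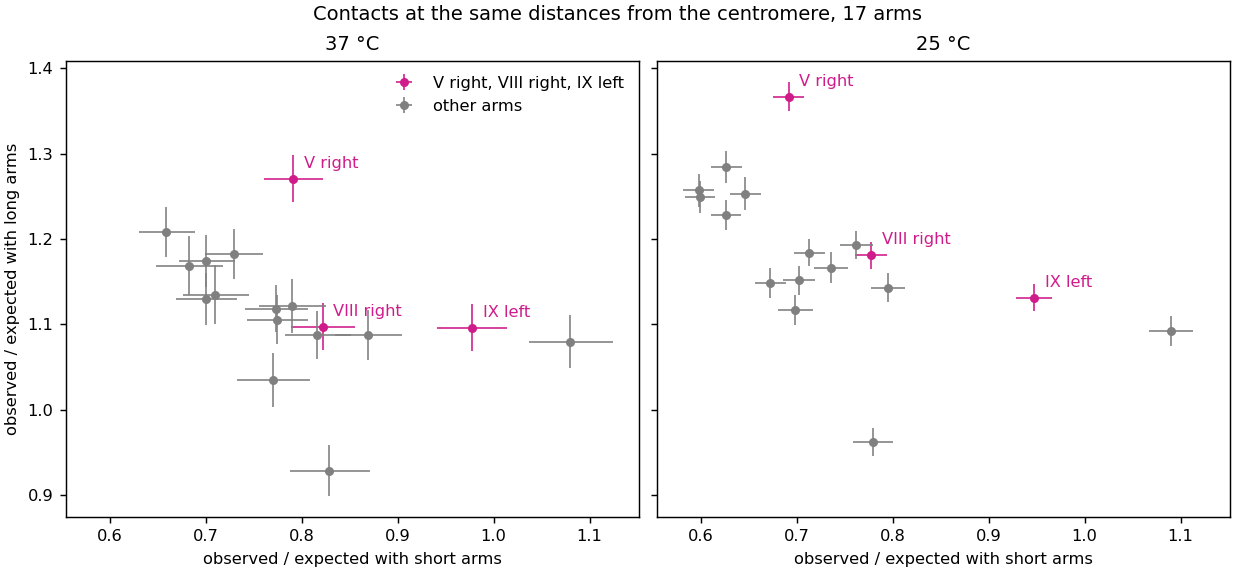
Observed over expected contacts with short arms (horizontal axis) and with long arms (vertical axis) for 17 arms at the same distances from the centromere, at 37 °C (left) and 25 °C (right), with 95% Poisson intervals; the 3 member arms are in magenta and named. V right sits at the top of both panels (1.27 and 1.37), and IX left second from the right (0.98 and 0.95).

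Contacts within the chromosome were set against the mean of all chromosomes at the same separation. Among pairs at least 2 fragments apart, V right had a ratio within itself of 0.72 (0.68 to 0.75) at 37 °C and 0.72 (0.69 to 0.75) at 25 °C. VIII right had 0.83 (0.79 to 0.86) at 37 °C and 0.54 (0.52 to 0.56) at 25 °C, and IX left 0.87 (0.82 to 0.92) and 0.39 (0.36 to 0.41). These values turned with the separation: at 20 fragments or more the 3 arms together had 1.11 at 37 °C and 1.05 at 25 °C, against 0.80 and 0.55 from 2 fragments on. The arms differed in this: at 20 fragments or more V right had 0.92 (0.86 to 0.99) at 37 °C and 1.31 (1.24 to 1.39) at 25 °C, a log2 of -0.51 (-0.64 to -0.38), whereas the log2 was 0.24 (0.15 to 0.34) for VIII right and 0.40 (0.24 to 0.56) for IX left. At separations of 2 to 9 fragments the log2 of V right was 0.91 (0.68 to 1.13), so its equal sums hide differences of opposite sign. Most close pairs held no contact in either map. At separations of 2 to 9 fragments, 91.1% to 95.1% of pairs within the arms were empty at 37 °C and 98.2% to 98.7% at 25 °C, against 85.5% and 92.5% over all chromosomes. Pairs between chromosomes were empty in 85.0% of cases at 37 °C and 58.3% at 25 °C. How pairs of near fragments were counted before deposit is not given in the sources used here, and its part in these values was not tested.

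Beyond their own run, the members met their own centromere less than the mean at that separation. V right had 0.30 (0.25 to 0.37) at 37 °C and 0.35 (0.31 to 0.39) at 25 °C, VIII right 0.47 (0.41 to 0.54) and 0.35 (0.32 to 0.39), and IX left 0.46 (0.39 to 0.53) and 0.55 (0.50 to 0.60). With the other arm of its chromosome V right stood at 0.65 (0.61 to 0.70) at 37 °C and 0.70 (0.67 to 0.73) at 25 °C. VIII right stood near the mean, at 0.91 (0.85 to 0.98) and 0.92 (0.88 to 0.97). IX left had 0.94 (0.84 to 1.06) with its short right arm at 37 °C and 1.28 (1.20 to 1.37) at 25 °C.

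By gene positions interpolated between the chromosome start, the centromere and the end, the members carry 96 genes on V (84 coding for proteins and 8 for tRNA), 129 on VIII (122 and 4) and 67 on IX (65 and 0). That is 5.08, 5.55 and 4.51 genes per 10 kb, against 5.34 over the genome. These densities use spans of 188.9, 232.3 and 148.7 kb, not the spans from the mean fragment size given at the start. They depend on which span is used. Of 44 listed genes, all matched to the gene table of R64, 32 fell inside the members. Each was described by the fragments within 5 of its place, whose runs overlap between near genes, so genes are not independent. Coordinates below are those of the gene, and the fragments counted lie only near it.

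Over the members as a whole the log2 was -0.09 with each other and 0.40 with centromere regions, and most gene neighbourhoods had the same signs. With the other 2 members 28 of the 32 genes had a lower ratio at 37 °C, 6 of them with an interval below 0 and none above 0. With centromere regions 32 of 32 had a higher one, and 26 had an interval above 0. The share over all genes of the members was not computed, so the counts by list below have no such background beside them.

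The list named heat shock and stress gave 3 genes, and that name is only the label of the list. The neighbourhood of SSA4, an Hsp70 chaperone gene induced by heat (chrV:364589-366517), had 0.99 with the other members at 37 °C and 1.09 at 25 °C. With centromere regions it had 0.54 at 37 °C and 0.34 at 25 °C, a log2 of 0.67 (0.43 to 0.91). RPS8B, a ribosomal protein gene beside it, shares the same fragments and values, so the value is not specific to SSA4. CCT2, which codes for a subunit of the cytosolic chaperonin (chrIX:83302-84885), had 1.23 at 37 °C and 1.19 at 25 °C with the other members and 0.43 and 0.35 with centromere regions. PFK26, a gene for 6-phosphofructo-2-kinase (chrIX:163278-165761), had 1.06 and 1.05 with the other members and 0.60 and 0.49 with centromere regions.

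The 7 ribosomal protein genes were lower at 37 °C with the other members in 7 of 7 cases, 4 with an interval below 0. Lower values were also the rule over all listed genes, at 28 of 32. The runs hold other genes too, as with RPS8B and SSA4, or RPS26B and GLC7, so the values are not specific to ribosomal protein genes. RPS4B, which codes for a small subunit protein and lies farthest out on VIII of the genes listed (chrVIII:504476-505530), had 1.18 at 37 °C and 1.46 at 25 °C, a log2 of -0.31 (-0.53 to -0.10). RPL42B, for a large subunit protein (chrVIII:381990-382751), had 1.05 and 1.28, a log2 of -0.29 (-0.48 to -0.11). RPS26B on V (chrV:423952-424311) had 1.03 and 1.23, a log2 of -0.25 (-0.45 to -0.06). RPL40A on IX (chrIX:68708-69528) had 1.12 and 1.28, a log2 of -0.19 (-0.37 to -0.01). RPL16A, also on IX, had 1.24 and 1.28 (log2 -0.04, -0.21 to 0.13).

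The 6 sugar genes had no interval that left 0 with the other members. ENO2, an enolase gene (chrVIII:451327-452640), had 1.18 at 37 °C and 1.23 at 25 °C with them, and 0.49 and 0.31 with centromere regions, a log2 of 0.64 (0.42 to 0.86). SUC2, which codes for invertase (chrIX:37385-38983), had 1.21 and 1.21 with the other members and 0.44 and 0.37 with centromere regions. The hexose transporter genes HXT4, HXT1 and HXT5 stand side by side on VIII near the inner border of the run, and had 1.06, 1.06 and 1.13 at 37 °C against 1.13, 1.13 and 1.14 at 25 °C. Their ratios with centromere regions, 0.52 to 0.55 at 37 °C and 0.45 to 0.46 at 25 °C, were above those of the other listed genes on VIII in both maps.

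Of the 7 meiosis genes, 6 were lower at 37 °C with the other members, none beyond its interval, and 7 were higher with centromere regions, each with an interval above 0. NDT80, a transcription factor gene of meiosis (chrVIII:356561-358444), had 1.19 and 1.16 with the other members and 0.46 and 0.36 with centromere regions. SPR6, a gene expressed in sporulation (chrV:394292-394867), had 0.51 and 0.30 with centromere regions, a log2 of 0.76 (0.53 to 0.98). The 5 glucose-repressed and mitochondrial genes were lower with the other members in 4 cases, none beyond its interval. Of the remaining 4, FLO8, a transcription factor gene for flocculation and filamentous growth (chrV:375215-377614), had 0.97 and 1.14 with the other members (log2 -0.24, -0.44 to -0.04), and GLC7, the catalytic subunit of protein phosphatase 1 (chrV:432495-433958), had 1.05 and 1.25 (log2 -0.25, -0.46 to -0.05).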

How the data were processed

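Per temperature the authors deposited 1 symmetric matrix of raw contact counts for pairs of fragments, with the 2 replicates combined and no fragment names, per the file names and values. Reads were aligned with Bowtie 1.1.0 to R64, per the submitters' processing notes; any later step is not given in the sources used here. Both maps were aligned to each other by fragment order and totals (1 and 6 fragments unmatched in the 37 °C and 25 °C maps). Chromosome borders came from a Poisson segmentation of the 37 °C map and were used for both maps, and centromeres from the peak of contacts between chromosomes. For 8 of the 15 borders, the same segmentation of the 25 °C map alone placed a border within 3 fragments. For the rest the maps gave different places. The lowest 2% of fragments in either map were left out, keeping 4282, and factors were fitted by iterative proportional fitting. Intervals are Poisson (ratios) or Clopper-Pearson (log2). Recovery of the ratios was tested on simulated Poisson counts in which V right with VIII right had set ratios. Map alignment, chromosome borders, centromere placement and intervals were not tested this way. The members, gene lists and classes were chosen with earlier results of these data known. Named partner arms are the 3 highest and 3 lowest per arm and map; genes come from the lists, and those printed were chosen after their values were seen.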

Additional observations from a re-analysis of the deposited data

How the results depend on the processing

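No paired analysis was possible because the replicates of each temperature are combined in 1 map; for the same reason leaving out a replicate was not run. Of 492 values recomputed under an alternative, 340 moved by less than their interval, 143 moved by more and 9 turned direction. Depth limits the 37 °C map most: it holds fewer contacts and its intervals are wider. The restriction to the same distances from the centromere was chosen after seeing the data. The causes of the changes below were not tested. Values are given for 37 °C and then 25 °C where a pair is printed.

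Without raised fragments the 3 arms with each other came to 1.26 at 25 °C, with medium arms to 1.15 and 1.19, with long arms to 1.23 and 1.26 (log2 -0.039), with centromere regions to 0.388 and 0.322 (log2 0.27), and within themselves to 0.710 and 0.530 (log2 0.42); IX left with long arms turned to a log2 of 0.010. With the expectation taken from totals alone, the values were 1.09 and 1.16 among the 3 arms, 0.800 and 0.761 with short, 1.09 and 1.14 with medium, and 1.14 and 1.22 with long arms. With arm classes at 60 and 180 fragments they were 0.843 and 0.772 (log2 0.13) with short and 1.11 and 1.15 with medium arms. Over whole partner arms they were 1.00 and 1.01 (log2 -0.0081) with medium and 1.07 and 1.10 (log2 -0.034) with long arms; V right with medium arms turned to 0.965 and 0.961, with a log2 of 0.0047. Without chromosome ends, the 25 °C values were 1.26 among the 3 arms, 0.803 with short, 1.19 with medium and 1.26 with long arms. With a cap of 5 contacts per pair, the 25 °C values were 1.16 with medium, 1.23 with long arms and 0.385 with centromere regions (log2 0.26). At the same distances from the centromere, the 25 °C values were 0.806 with short and 1.22 with long arms. Within the 3 arms a minimum separation of 5 fragments gave 0.903 and 0.741 (log2 0.29), and one of 20 fragments turned them to 1.11 and 1.05 (log2 0.069). At 20 fragments V right turned to 1.31 at 25 °C, VIII right to 1.17 at 37 °C and IX left to 1.24 at 37 °C.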
